A study of Caenorhabditis elegans with 14 samples.

Results

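The small RNAs of 8 Caenorhabditis elegans genes for histone variants and the linker histone HIS-24 were followed through 14 libraries. The genes were taken by name: his-24, his-69, his-70, his-71, his-72, his-74, htz-1 and hcp-3. They are 8 of the 20155 protein-coding genes with reads. Sense and antisense reads were kept apart, which gave 16 features among 60890 in all.

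Replication-dependent histones are made in S phase, whereas variant histones can be placed into chromatin outside replication and mark particular regions. H3.3 replaces histone H3 at active genes and in the germline, H2A.Z sits in the nucleosomes that flank gene starts, CENP-A builds the centromere, and linker histone H1 binds the DNA between nucleosomes. In the worm germline, RNA-dependent RNA polymerases copy transcripts into short antisense RNAs, which Argonaute proteins carry. PRG-1, the Piwi protein, binds piRNAs and directs part of this copying, while reads sense to a gene of this size range include fragments of its transcript.

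The tested strains carried tofu-6(it20), tofu-6(ust94), tofu-6(ust95), tofu-6(yt2), pics-1(tm2417), erh-2(ust101), prg-1(n4503) or tost-1(ust103), and the control strain was the one labelled n2. All were late young adults kept at 20 °C on OP50 bacteria, and RNA of 17 to 30 nucleotides was purified from gels. In 8 libraries the RNA was first dephosphorylated with calf intestinal phosphatase and then decapped with Tobacco Decapping plus 2 (TDP2); 6 libraries were untreated. The TDP2 libraries held 4 tofu-6 alleles and 1 each of pics-1, erh-2, prg-1 and control. The untreated libraries held 1 each of tost-1, pics-1, tofu-6(ust94), prg-1, erh-2 and control. Each strain is 1 allele in 1 or 2 libraries, the labels name no separate cultures, and p-values therefore rest on the spread between these libraries only. In the TDP2 comparisons that spread came from the 4 tofu-6 alleles, and groups of 1 library were assumed to share it. In the edgeR fit it was pooled over features, so SE and p do not measure a gene's own spread between alleles.

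With TDP2, reads sense to tofu-6 numbered 15 in ust94 and 73 in ust95, fewer than the 118 in control, and 156 in it20 and 130 in yt2, more than in control. Reads sense to pics-1 (annotated as pid-3) numbered 12 in its mutant with TDP2, against 52 in control, and those to tost-1 numbered 7 in its untreated mutant, against 30 in control. Prg-1 had 103 in its mutant with TDP2, against 201 in control, and 216 untreated, against 203. Per 1000000 assigned reads this was lower in both, 11.9 against 21.6 with TDP2 and 21.3 against 28.7 untreated. Erh-2 had 78 with TDP2, against 53 in control, which per 1000000 assigned reads was 5.79 against 5.69. Fragment counts of this kind do not test the alleles. Assigned reads ran from 6918136 to 13469619 per library. Reads antisense to protein-coding genes took 4.93% to 28.3% of the TDP2 libraries and 0.336% to 0.751% of the untreated ones. In the untreated libraries, mature piRNA features had 23.7 RPM (reads scaled to 1000000 assigned reads) in prg-1, against 4033 RPM in control. With TDP2 they had 259 RPM in prg-1, against 1709 RPM in control. Reads sense to 33 sperm marker genes summed to 200.3 RPM in prg-1 and 118 in tofu-6(ust95) with TDP2, and to 1.93 to 12.9 in the other mutants, against 97.6 in control. Sums over 16 oocyte and germline markers ran from 508 to 1450 RPM in the TDP2 libraries, and sums over 18 soma markers from 5638 to 12578 RPM. The part of these marker levels in the results below was not tested. In bulk RNA, fewer cells of a type and less RNA per cell cannot be told apart.

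On the WBcel235 annotation, his-24 lies on the plus strand of chromosome X at 14490094 to 14491119 and htz-1 on the plus strand of chromosome IV at 4446216 to 4446999. The other members lie on the minus strand. His-69 is at chromosome III 4058360 to 4058743, and his-70 follows after 971 bases at 4059715 to 4060119. His-72 is at chromosome III 12367475 to 12369050, hcp-3 at chromosome III 9615306 to 9616470, his-71 at chromosome X 7981382 to 7982070 and his-74 at chromosome V 12659704 to 12660330. Reads of near-identical H3.3 copies may be split or counted for each copy, so values of his-69, his-70, his-71, his-72 and his-74 are uncertain to that extent.

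The members differed widely in how much small RNA they drew. Per kilobase of exon, antisense levels in the control TDP2 library were 295 RPM for his-24, 124 for hcp-3, 46.7 for his-74, 13.6 for his-72 and 7.61 for htz-1. They were 1.33 for his-70, 0.559 for his-69 and 0.363 for his-71, each from 5 reads or fewer. On the sense strand of the same library, levels per kilobase were 41.9 RPM for his-72, 30.4 for htz-1, 26.9 for his-69, 11.8 for hcp-3, 11.8 for his-24, 7.78 for his-74, 6.18 for his-71 and 1.06 for his-70. The control is 1 library, so neighbours in either order were not separated by any spread.

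His-24, the linker histone H1.1 that is known for a part in germline silencing, had far fewer antisense reads in prg-1 than in any other TDP2 library. Its antisense reads numbered 3823, 1636, 3948 and 5970 in the it20, ust94, ust95 and yt2 alleles of tofu-6, 6632 for pics-1, 3939 for erh-2 and 35 for prg-1, against 2531 in control. In RPM this was 435, 197, 429.8 and 732 in the tofu-6 alleles, 837 for pics-1, 292 for erh-2 and 4.04 for prg-1, against 272 in control. The tofu-6 values spread on both sides of control, and prg-1 lay below all others.

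**Figure D1:**
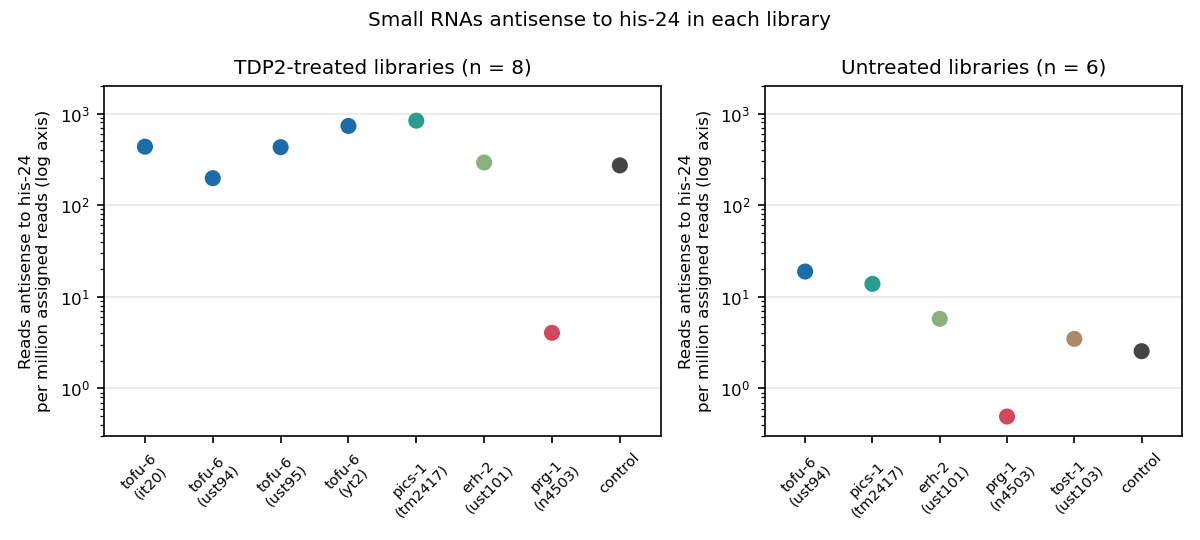
Reads antisense to his-24 in RPM (log axis), 1 point per library, with TDP2-treated libraries on the left and untreated libraries on the right. The prg-1 point is the lowest in both panels, at 4.04 with TDP2 and 0.493 untreated.

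The TDP2 libraries were compared with edgeR's quasi-likelihood test over all features, with Benjamini-Hochberg adjustment and a threshold of 0.05. Against control, his-24 antisense reads fell by 5.63 on the log2 scale in prg-1 (SE 1.54, adjusted p = 0.00728, lower in 1 of 1 library). It was the 1 member called of 13 tested, and 5.63% of all features were called in that comparison, 12.1% of the antisense protein-coding features as lower. The change ranked 1366th from the lowest of 8653 antisense protein-coding features. The adjusted p was 0.0614 with DESeq2 size factors and 0.345 when libraries were scaled to microRNA reads, and ranged from 1.17e-05 to 0.345 over 12 alternatives. One of them, chosen after seeing the data, scaled libraries to the reads antisense to protein-coding genes, and there the change was -4.59 with an adjusted p of 0.258.

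Against prg-1, which leaves the control library out, his-24 antisense reads were higher in tofu-6. They averaged 405 ± 137 CPM in the tofu-6 alleles (SD, n = 4) and 5.29 CPM in prg-1, where CPM are counts scaled to 1000000 of the TMM-adjusted library total. The log2 change was 6.25 (SE 1.51, adjusted p = 0.00122 by edgeR's quasi-likelihood test with Benjamini-Hochberg adjustment), higher in 4 of 4 alleles. It was the 1 member called of 13, beside 7.2% of all features and 14.3% of the antisense protein-coding features as higher. Over 12 alternatives the adjusted p ranged from 1.95e-11 to 0.116, and the call was lost in 1 of them, the scaling to reads antisense to protein-coding genes.

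His-24 was not called in the other mutants. Against control, its antisense log2 change was 0.62 ± 1.03 in tofu-6, 1.27 ± 1.27 for pics-1 and 0.54 ± 1.25 for erh-2 (SE; adjusted p 0.831, 1.00 and 0.833 by edgeR). These comparisons and that of prg-1 share the single control library. Among 18472 antisense protein-coding features with reads, his-24 ranked 27th, 28th, 48th and 46th by level in the it20, ust94, ust95 and yt2 alleles of tofu-6, 39th in pics-1, 26th in erh-2 and 2834th in prg-1, against 57th in control. Scaled to 1000000 reads antisense to protein-coding genes, it had 2700 to 4048 in the tofu-6 alleles, 2958 for pics-1, 3988 for erh-2 and 73.9 for prg-1, against 1779 in control.

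Annotated non-coding genes overlap his-24 on the opposite strand. M163.16 lies across its exons and M163.19 shares 55 exon bases with it. Reads sense to M163.16 numbered 473, 271, 780 and 744 in the it20, ust94, ust95 and yt2 alleles of tofu-6, 915 for pics-1, 696 for erh-2 and 6 for prg-1, against 287 in control. They fell by 5.02 on the log2 scale in prg-1 against control (SE 1.48, adjusted p = 0.017 by edgeR), a call that held under 6 of 11 alternatives (adjusted p 0.000912 to 0.345). Where these genes share bases with his-24, antisense reads of his-24 and sense reads of the non-coding gene cannot be told apart. Reads antisense to M163.19, which run in the direction of his-24, numbered 49 to 156 in the tofu-6 alleles and at most 312 in the other mutants, against 1060 in control. Their log2 change in tofu-6 against control was -3.18 ± 0.80 (SE, adjusted p = 0.0386 by edgeR), beside 0.262% of all features called. That call held under 3 of 11 alternatives, with adjusted p from 0.0173 to 0.757.

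On the sense strand, his-24 numbered 14, 6, 68 and 22 reads in the it20, ust94, ust95 and yt2 alleles of tofu-6, 11 for pics-1, 47 for erh-2 and 43 for prg-1, against 101 in control. Control had the most reads of the 8 TDP2 libraries, 10.8 RPM, and ust95 had 7.40, the highest of the mutants. The log2 changes against control were -1.91 ± 0.86 in tofu-6, -3.31 ± 1.33 for pics-1, -1.2 ± 1.21 for erh-2 and -0.69 ± 1.2 for prg-1 (SE), and none was called (adjusted p 0.762, 0.648, 0.612 and 1.00 by edgeR). Reads antisense to M163.19 run in the direction of his-24, and control was highest for these and for his-24 sense reads.

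Among the H3.3-type genes, his-69, his-71 and his-72 had more sense than antisense reads in the control TDP2 library, and his-74 had fewer. His-69 had 8, 6, 13 and 30 sense reads in the it20, ust94, ust95 and yt2 alleles of tofu-6, 9 for pics-1, 6 for erh-2 and 35 for prg-1, against 96 in control. Control was above every mutant, and yt2 was the highest of the tofu-6 alleles. The log2 change was -2.74 ± 0.88 in tofu-6 (SE, adjusted p = 0.235 by edgeR, lower in 4 of 4 alleles), -3.52 ± 1.41 for pics-1, -4.07 ± 1.46 for erh-2 and -0.91 ± 1.26 for prg-1. The tofu-6 value passed the threshold without yt2, at -3.32 and an adjusted p of 0.048, and at no other alternative among 10.

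No member was called in tofu-6, pics-1 or erh-2 against control. In tofu-6, 0 of 13 members were called beside 0.262% of all features, and DESeq2 called 0. At an unadjusted p under 0.05 by edgeR were 2 members, beside 1272 of all 22549 features. In pics-1, 0 of 13 were called beside 0.0532%, and DESeq2 called 0. Here 3 members were at an unadjusted p under 0.05 by edgeR, beside 1179 of all 22549 features. In erh-2, 0 of 13 were called beside 0.169%, and DESeq2 called 0. Here 1 member was at an unadjusted p under 0.05 by edgeR, beside 2431 of all 22549 features. His-74 sense passed in erh-2 when libraries were scaled to microRNA reads (log2 change 3.97, adjusted p = 0.0495 by edgeR).

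**Figure D2:**
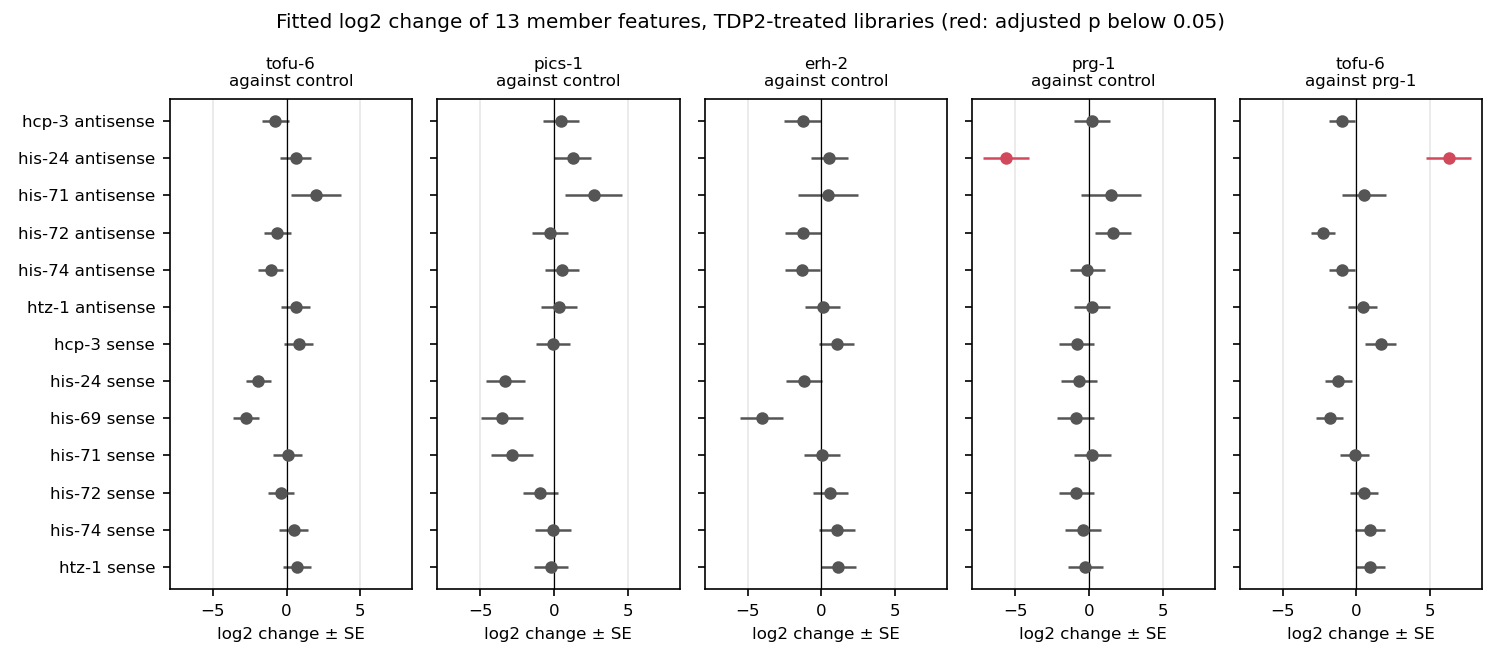
Fitted log2 change with its SE (horizontal bars) for the 13 member features that passed the filter, in 5 comparisons of TDP2-treated libraries; red points have an adjusted p below 0.05 by edgeR. The red points are his-24 antisense in prg-1 against control (-5.63) and in tofu-6 against prg-1 (6.25).

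His-72, which encodes an H3.3 histone, had 5.12, 0.963, 4.46 and 14.6 RPM of antisense reads in the it20, ust94, ust95 and yt2 alleles of tofu-6, 9.21 RPM for pics-1, 2.67 RPM for erh-2 and 19.8 RPM for prg-1, against 8.70 RPM in control. The ust94 value rests on 8 reads, yt2 lay above control and the other alleles below it, and prg-1 was the highest. Its log2 change in tofu-6 against prg-1 was -2.26 ± 0.83 (SE, adjusted p = 0.0798 by edgeR), lower in 4 of 4 alleles. It was called without yt2 (-3.26, adjusted p = 0.0021) and when the antisense features were fitted alone, a setting chosen after seeing the data (-2.07, adjusted p = 0.0317). Against control the prg-1 change was 1.63 ± 1.21 (adjusted p = 0.905 by edgeR). Its sense reads stayed between 95 and 406 in the TDP2 libraries, with the fewest in prg-1 and the most in erh-2.

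His-74, another H3.3-type gene, had 85, 27, 112 and 264 antisense reads in the it20, ust94, ust95 and yt2 alleles of tofu-6, 399 for pics-1, 110 for erh-2 and 161 for prg-1, against 252 in control. The yt2 reads were above control and those of the other alleles below, and on the TMM-adjusted scale all 4 alleles were below it. His-71, also H3.3, had 4 to 10 antisense reads in the tofu-6 alleles, 15 for pics-1, 3 for erh-2 and 4 for prg-1, against 2 in control. Its sense reads ran from 5 to 57 with TDP2, fewest in pics-1 and most in tofu-6(ust95). His-70, an H3.3-like gene beside his-69, had at most 8 reads on a strand in any library. It had 0 sense reads in 11 of 14 libraries and 0 antisense reads in 6 of 14. With the filter on low counts it was not tested on either strand.

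Htz-1 encodes the H2A.Z histone. Its sense reads numbered 279, 364, 329 and 264 in the it20, ust94, ust95 and yt2 alleles of tofu-6, 197 for pics-1, 485 for erh-2 and 121 for prg-1, against 208 in control. Every tofu-6 allele lay above control, but the log2 change of 0.71 ± 0.98 was not called (SE, adjusted p = 0.815 by edgeR). Antisense reads numbered 61, 11, 40 and 220 in the tofu-6 alleles, 72 for pics-1, 59 for erh-2 and 41 for prg-1, against 52 in control. The sense and antisense reads of htz-1 were spread nearly evenly over its 3 transcripts, with 1264, 1224 and 1170 sense reads over 14 libraries.

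Hcp-3 encodes the centromeric histone CENP-A. It had 622, 231, 548 and 1330 antisense reads in the it20, ust94, ust95 and yt2 alleles of tofu-6, 1782 for pics-1, 518 for erh-2 and 933 for prg-1, against 1170 in control. In RPM the prg-1 level was close to control, 108 against 126 RPM, while his-24 was at 4.04 against 272 in the same libraries. Scaled to the reads antisense to protein-coding genes, as for his-24 above, hcp-3 was higher in prg-1, at 1971 against 823 in control. By level hcp-3 ranked 35th among antisense protein-coding features in prg-1, against 173rd in control. Each of these values is from 1 library. The log2 change in prg-1 against control was 0.21 ± 1.22 for hcp-3 (SE, adjusted p = 1.00 by edgeR). In tofu-6 against prg-1 it was -0.99 ± 0.90 (adjusted p = 0.683 by edgeR). Hcp-3 shares 27 exon bases with F58A4.6 and 21 with the piRNA 21ur-9360, both on the opposite strand.

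**Figure D3:**
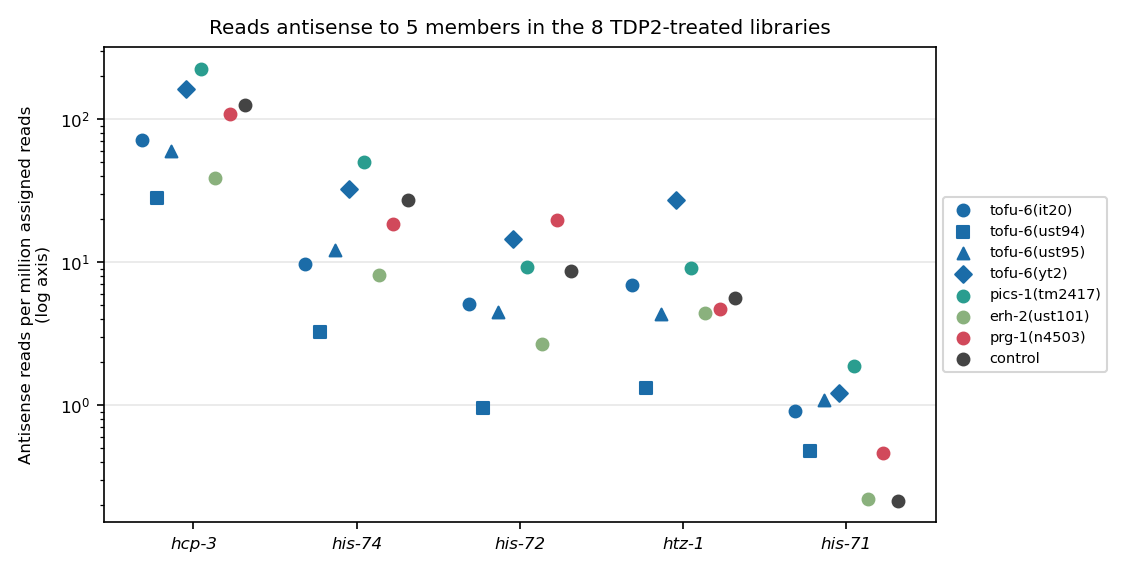
Antisense reads in RPM (log axis) of 5 members in the 8 TDP2-treated libraries, with marker shapes for the tofu-6 alleles and colours for the genotypes. For each gene the lowest tofu-6 allele was ust94, from 27.8 for hcp-3 down to 0.482 for his-71, in the library with the lowest share of antisense protein-coding reads (4.93%, against 10.7% to 27.1% in the other alleles).

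Sense reads of hcp-3 numbered 130, 272, 154 and 137 in the it20, ust94, ust95 and yt2 alleles of tofu-6, 116 for pics-1, 243 for erh-2 and 43 for prg-1, against 111 in control. The prg-1 library was the lowest, and ust94 stood above the other tofu-6 alleles at 32.8 RPM against 14.8 to 16.8. In tofu-6 against prg-1 the log2 change was 1.65 ± 1.05 (SE, adjusted p = 0.495 by edgeR), higher in 4 of 4 alleles.

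**Figure D4:**
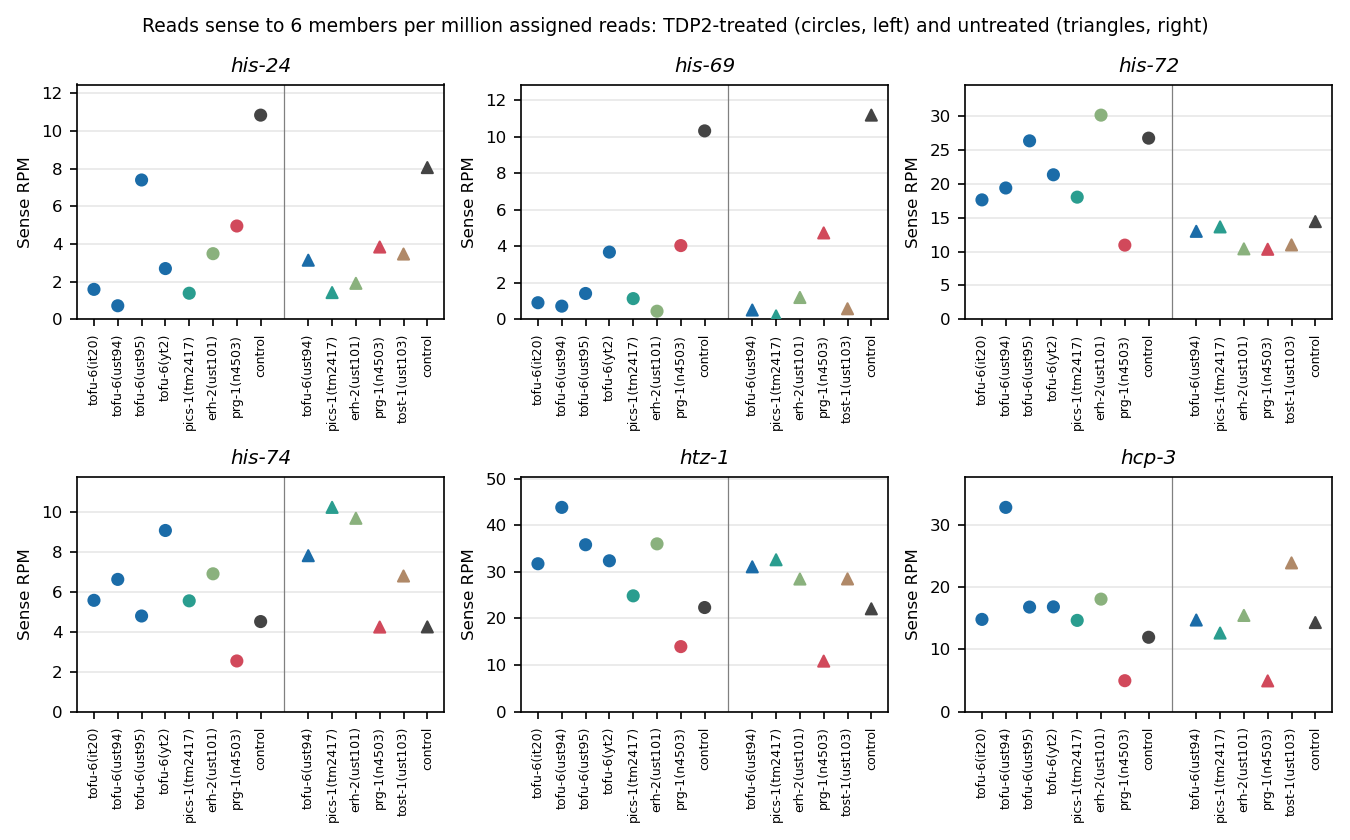
Reads sense to 6 members in RPM, 1 point per library, TDP2-treated (circles) left of the line and untreated (triangles) right of it. For his-69 the control points, at 10.3 and 11.2, are above those of every mutant.

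Genes with a pattern like the most-read members were sought among 2074 antisense features with a mean of 100 or more reads, by Pearson's r of log2(CPM + 1) over the 8 TDP2 libraries. Those closest to his-24 were Y105E8A.1, F37H8.2 and W09H1.3, with r of 0.998, 0.998 and 0.997. Y105E8A.1 had 338 to 1439 antisense reads in the tofu-6 alleles and 0 in prg-1, against 617 in control. F37H8.2 had 3199 to 16900 reads in the tofu-6 alleles and 16 in prg-1, against 7503 in control. Those closest to hcp-3 were fubl-2, mig-5 and ptc-1, with r of 0.995, 0.994 and 0.994. Fubl-2 had 31 to 169 antisense reads in the tofu-6 alleles and 120 in prg-1, against 168 in control. These are correlations over 8 libraries that share their depth and scaling, given as a description.

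Related genes from lists gave a setting for these values. On the sense strand, the median log2 change in tofu-6 against control was -2.23 for 65 replication-dependent core histone gene identifiers and 0.81 for all 10757 protein-coding features, and 0 of the 65 were called by edgeR. In tofu-6 against prg-1, 16 of the 65 were called as lower, with a median of -1.93, beside 0.799% of sense protein-coding features. Over 11 alternatives 0 to 31 were called as lower: 0 without it20 and with scaling to antisense reads, 3 without ust95 and 31 without yt2. Among the 16 called core histone genes, his-2, an H3 gene, averaged 3.70 CPM in the tofu-6 alleles and 30.5 CPM in prg-1. Summed sense reads of the core histone list ran from 303 to 1033 RPM in the tofu-6 alleles, 557 for pics-1, 610 for erh-2 and 1990 for prg-1, against 3970 in control. Several identifiers of this list share 1 symbol in the annotation. Reads of near-identical copies may be shared between them, so calls within the list may not be independent on either strand. In tofu-6 against prg-1, 14 of 24 tested sperm markers were called as lower, with a median of -2.99. Over 11 alternatives 0 to 21 sperm markers were called as lower. Summed reads of the sperm markers were 7.36 to 118 RPM in the tofu-6 alleles, against 200.3 RPM in prg-1. Against control the sperm marker sums were lower in 3 of the 4 alleles, 7.36 to 12.9 RPM against 97.6 RPM, and higher in ust95 (118 RPM). Their part in the core histone values was not tested. On the antisense strand, 8 of the 65 were called as higher in tofu-6 against control, beside 0.162% of antisense protein-coding features. None of these calls held with DESeq2 size factors, the DESeq2 test, microRNA scaling, either antisense setting, or without it20 or ust95. One of these, his-61, had 675, 2, 198 and 1051 reads in the 4 alleles, so ust94 stood apart from the rest.

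Among 11 other linker, centromeric and sperm histone variants, 2 of 8 tested antisense features fell in prg-1 against control, beside 12.1% of antisense protein-coding features. Hil-8, a linker histone-like gene, had 0.151 CPM in prg-1 and 100.2 CPM in control (log2 change -9.25, SE 1.88, adjusted p = 0.000185 by edgeR). Hil-3, a linker histone H1 gene, had 3.32 CPM in prg-1 and 69.1 CPM in control (log2 change -4.37, SE 1.40, adjusted p = 0.0358 by edgeR). Both were also called as higher in tofu-6 against prg-1, at 8.41 and 4.21 on the log2 scale, beside 14.3%. Against control the hil-8 call held under 10 and the hil-3 call under 5 of 12 alternatives, and against prg-1 under 11 and 6 of 12. Antisense features of 23 histone chaperones and exchange factors and of 24 kinetochore and centromere genes gave 0 calls in prg-1 against control, with medians of 0.07 and -0.18, beside -0.76 over all antisense protein-coding features.

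In 5 strains with both kinds of library, 5 of the 5 tested antisense members rose after TDP2, and 1 of 7 sense members fell. Over all features 55.2% were called, and 90.6% of antisense protein-coding features were called as higher, so the antisense members were called at about the background rate. His-24 antisense averaged 244 ± 211 CPM with TDP2 and 8.63 ± 7.64 CPM untreated (SD, n = 5 each; log2 change 4.63, SE 0.62, adjusted p = 0.000212 by edgeR, higher in 5 of 5 strains). The log2 changes of the others were 4.99 for his-74, 4.01 for hcp-3, 3.85 for his-72 and 3.37 for htz-1, each higher in 5 of 5 strains.

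**Figure D5:**
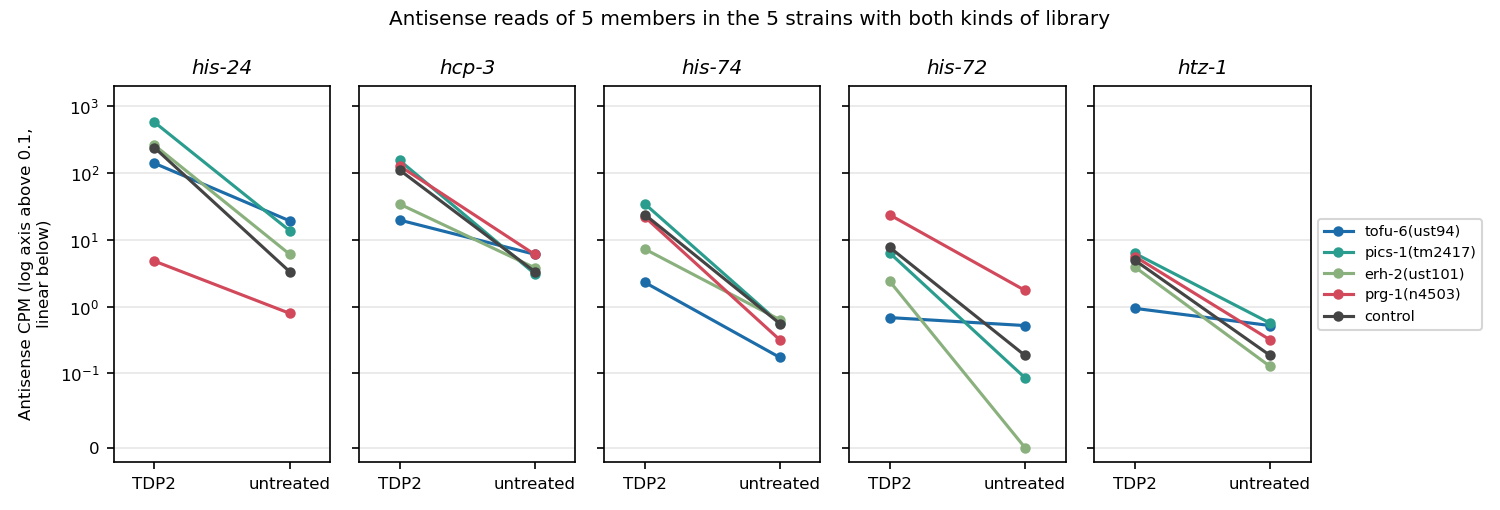
Antisense CPM of 5 members with TDP2 and untreated in the same strain, 1 line per strain; the axis is logarithmic above 0.1 and linear below. All lines are higher with TDP2, and for his-24 prg-1 is the lowest line at both ends.

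His-74 sense reads fell after TDP2, averaging 4.33 ± 1.18 CPM with TDP2 and 8.15 ± 2.06 CPM untreated (SD, n = 5 each). The log2 change was -0.91 (SE 0.32, adjusted p = 0.0315 by edgeR), lower in 5 of 5 strains, beside 14.4% of sense protein-coding features called as lower. The call was lost without the erh-2 pair (adjusted p = 0.0719), without the pics-1 pair (0.0859) and with no filter (0.157). With scaling to reads outside rRNA, tRNA, snRNA and snoRNA the change was -0.14 (adjusted p = 0.85), and the direction turned to 1.31 when libraries were scaled to microRNA reads. All 5 antisense calls hold with microRNA scaling, and none does when libraries are scaled to reads antisense to protein-coding genes, where the 7 called members are sense and lower. When the antisense features were fitted alone, which takes the shared antisense gain out, his-74 antisense remained called and the other 4 did not.

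In the untreated libraries, each with 1 library per genotype, no test over replicates was made and ratios carry 95% exact binomial counting intervals only. His-24 antisense reads numbered 222 in tofu-6(ust94), 146 for pics-1, 48 for erh-2, 5 for prg-1 and 24 in tost-1, against 18 in control. In RPM, the ratio to control was 7.40 (4.58 to 12.7) in tofu-6(ust94), 5.43 (3.32 to 9.42) for pics-1, 2.25 (1.29 to 4.12) for erh-2, 0.193 (0.0562 to 0.541) for prg-1 and 1.36 (0.709 to 2.66) in tost-1. In RPM, intervals of the first 4 leave out 1 and that of tost-1 spans it. When libraries were scaled to microRNA reads, the erh-2 interval spanned 1 as well.

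His-69 sense reads numbered 6 in tofu-6(ust94), 2 for pics-1, 10 for erh-2, 48 for prg-1 and 4 in tost-1, against 79 in control. The ratio to control was 0.0456 (0.0162 to 0.104) in tofu-6(ust94), 0.017 (0.00202 to 0.0633) for pics-1, 0.107 (0.0494 to 0.207) for erh-2, 0.423 (0.289 to 0.613) for prg-1 and 0.0518 (0.0138 to 0.138) in tost-1. All 5 intervals lie below 1. His-69 had 0 antisense reads in 6 of 6 untreated libraries, where 3 reads would be 0.255 to 0.434 RPM.

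Over the members with 10 or more reads in a pair of untreated libraries, the intervals left out 1 upward for 4 and downward for 2 of 9 features in tofu-6(ust94), beside 45.9% and 6.85% of all such features. In pics-1 it was 3 upward and 2 downward of 9, beside 47.1% and 10.3%. In erh-2 it was 3 upward and 3 downward of 9, beside 40.3% and 10.4%. In prg-1 it was 1 upward and 6 downward of 10, beside 10.9% and 23.3%. In tost-1 it was 2 upward and 2 downward of 9, beside 32.4% and 7.62%. His-24 sense was downward in all 5 mutants, with ratios from 0.176 in pics-1 to 0.477 in prg-1. Htz-1 sense was upward at 1.41 in tofu-6(ust94), 1.48 for pics-1 and 1.29 for both erh-2 and tost-1, and downward at 0.491 for prg-1. Hcp-3 sense was 0.345 (0.241 to 0.489) in prg-1 and 1.67 (1.3 to 2.16) in tost-1, and its intervals spanned 1 in the other mutants. Scaled to microRNA reads instead, 5 intervals were upward and 26 downward over the 5 mutants, against 13 and 15 in RPM. MicroRNA reads were 4.01% of the untreated control library and 3.93% of that of tost-1. They were 6.05% to 13.5% of the libraries of the remaining mutants, so this scaling lowers all features there, compared with RPM. Shares over all features were not computed for microRNA scaling, so whether the members differ from other features was not tested. With that scaling, 6 sense features were downward in tofu-6(ust94), 5 in pics-1 and 6 in erh-2. No sense feature, htz-1 included, was upward in these mutants, while 3 sense features were upward in tost-1.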

How the data were processed

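Per the labels, 14 libraries of small RNA were sequenced, and the authors deposited for each a file of raw read counts, sense and antisense, for every transcript. The submitters' processing notes name Bowtie2. Its version, the build, the counting of overlapping genes and the handling of multiply matching reads: not given in the sources used here. Class tables were not used. Members were matched by WormBase gene identifier through the WBcel235 annotation, since their rows carry no locus name, and the members and gene lists were chosen with earlier results of these data known.

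Counts were summed here per gene, class and strand, where the planned design had gene and strand alone, so that genes in more than 1 class stay split; blank counts were taken as 0, and 2 to 3 entries without a class per library (3 to 27 reads) were left out. Of the 67 core histone symbols listed, 24 were not names in that annotation, and the list held 65 identifiers. Levels are RPM (reads scaled to 1000000 assigned reads) or CPM on TMM-adjusted totals. EdgeR 4.0.16 (glmQLFit, glmQLFTest, TMM) in R 4.3.3 was fitted to the 8 TDP2 libraries with 5 genotype groups, and to 10 libraries of 5 strains blocked by strain, the strain name in the labels giving the pairs. A minimum of 10 reads in any library and 30 across the fitted ones left 22549 and 21837 features. Of 16 member features, 13 and 12 passed. The 3 residual degrees of freedom of the TDP2 fit come from the 4 tofu-6 alleles, and for groups of 1 library the same variability had to be assumed. The prior degrees of freedom were infinite, so each feature took the spread pooled over features in place of its own. P-values are two-sided and adjusted over all features by the Benjamini-Hochberg method, with DESeq2 1.42.0 as an alternative. The scripts were tested on simulated data. No pair of tofu-6 libraries looked like one library deposited repeatedly: chi-square over its degrees of freedom was 58.8 to 163. Intervals are exact Clopper-Pearson at 95% and, like the floor of 3 reads, cover counting error only.

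Named genes were all 8 members, up to 4 called genes with the largest change per list, comparison and strand, and the 3 features most like each of the 2 most-read members. Other scalings, filters, tests and left-out libraries were tried as alternatives.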

Additional observations from a re-analysis of the deposited data

Results flagged for a closer look

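Among the 4 tofu-6 TDP2 libraries, hcp-3 sense reads in ust94 stood at 39.4 CPM, against at most 15.1 CPM in the other alleles, a gap of 0.918 of the range, past the 95% limit of Dixon's test. His-71 antisense reads in ust94 stood at 0.58 CPM, against 0.931 to 0.947 CPM in the others, a gap of 0.957 of the range, on 4 to 10 reads per library. Chance flags about 1 in 20 groups, and 2 of 13 features stood out here. The his-24 antisense change against control differed between tofu-6 and prg-1 by 6.25 on the log2 scale, with an adjusted p of 0.00122 by edgeR's quasi-likelihood test with Benjamini-Hochberg adjustment, higher in 4 of 4 tofu-6 alleles.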

How the results depend on the processing

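Counts of members called in the 6 tested comparisons were compared with those of 12 to 14 alternatives each. The call of his-24 in prg-1 against control, 1 member, became 0 with DESeq2 size factors, with microRNA scaling and with scaling to reads antisense to protein-coding genes. In tofu-6 against prg-1, 1 member became 0 with that antisense scaling and 2 when antisense features were fitted alone. In erh-2 against control, 0 became 1 with microRNA scaling. In TDP2 against untreated, 6 members became 1 when the 5 antisense members were fitted with the antisense features alone, 8 with microRNA scaling, 7 with scaling to antisense reads (all sense and lower) and 7 with scaling to non-structural reads. Non-structural scaling lost his-74 sense and gained his-71 sense (1.62, adjusted p = 0.0107) and his-72 sense (1.00, adjusted p = 0.0421) as higher, and microRNA scaling lost his-74 sense and gained these and hcp-3 sense, all by edgeR. Both antisense settings were chosen after seeing the data, and the first gave 0 calls over all features in each TDP2 comparison. Leaving out 1 tofu-6 allele gave 0 to 1 member in tofu-6 against control, 0 in pics-1 and in erh-2 against control, 1 in prg-1 against control and 1 to 3 in tofu-6 against prg-1; the higher counts came without yt2. Leaving out 1 strain pair gave 5 to 6 members in TDP2 against untreated. Without the replicate block that pairs libraries by strain, 6 members were called there, as with it. Depth kept his-70 on both strands and antisense his-69 out of the tests, and antisense his-71 out of that of TDP2 against untreated. The exception was the alternative with no filter on low counts, where 16 features were tested. There 6 members were called after TDP2, with his-71 antisense gained and his-74 sense lost.

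After TDP2, among changes called in either fit, signs turned under scaling to antisense reads for his-71 sense (-2.91), his-72 sense (-3.60) and htz-1 antisense (-0.38), for htz-1 antisense fitted alone (-0.040), and under microRNA scaling for his-74 sense (1.31) and hcp-3 sense (2.14). Uncalled sense changes of his-24, his-69 and htz-1 also turned, reaching 1.58, 1.90 and 1.99. By construction, the antisense settings remove the shared antisense gain; the cause of the other changes was not tested. MicroRNA scaling moved the median of all features against control by 1.76 (tofu-6), 1.5 (pics-1), 2.92 (erh-2) or 2.01 (prg-1) and by 2.24 after TDP2 (log2). Calls over all features against control were 0 to 101 (tofu-6), 0 to 45 (pics-1), 0 to 5662 (erh-2) or 0 to 1475 (prg-1), 0 to 1917 for tofu-6 against prg-1 and 864 to 13862 after TDP2, against 59, 12, 38, 1270, 1624 and 12058 in the reported fit. Other scalings moved the split into higher and lower calls by over 10 points in these cases. Against control, tofu-6 had 20 higher and 39 lower, but 6 and 0 with microRNA scaling and 21 and 20 with scaling to non-structural reads. Pics-1 had 4 and 8, but 4 and 1 and, with non-structural scaling, 9 and 7. Erh-2 had 13 and 25, but 5654 and 8 with microRNA scaling, and prg-1 had 20 and 1250, but 7 and 1. After TDP2, 9378 were higher and 2680 lower, but 13486 and 376 with microRNA scaling, 11054 and 874 with non-structural scaling and 290 and 12404 with scaling to antisense reads. Leaving out libraries also moved it: in tofu-6 against prg-1 1450 calls were higher and 174 lower, but 1199 and 443 without yt2, and after TDP2 77.8% were higher, but 67.6% without the prg-1 pair. On few calls, in tofu-6 against control 33.9% were higher, but 13.9% to 75% with an allele left out and 50% by DESeq2, and in erh-2 34.2%, but up to 100% without it20 or ust95.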
